A study of Rattus norvegicus with 6 samples.

Results

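The p53 target genes examined here are 10 genes whose transcription the tumour suppressor p53 is known to raise after DNA damage: Cdkn1a, Mdm2, Ccng1, Bax, Phlda3, Btg2, Gdf15, Tp53inp1, Sesn1 and Zmat3. The genes were chosen by name, as well-known targets, with earlier results of these data known. Their probes were taken as all array probes whose transcript accession belongs to one of them. This gave 17 probes for 9 of the 10 genes, out of 61453 probes analysed; none of the probes matched Sesn1 by accession, and it is not analysed here. Of the 17 probes, 15 were well above background on all 6 arrays and were tested among 37274 probes. The other 2 probes, the third of Cdkn1a and the second of Zmat3, were not.

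The arrays hold renal cortex total RNA from male rats of the outbred Sprague-Dawley strain, which were 5 weeks old when purchased. Corn oil alone was given to 3 rats and 1,2-dibromoethane, at 75 mg/kg/day, to another 3, in both cases for 4 weeks. Dibromoethane is a halogenated solvent and former fumigant whose glutathione conjugates can alkylate DNA. Each rat gave 1 single-colour array, and all rats received the same basal diet.

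p53 is held at a low level in resting cells by the ubiquitin ligase Mdm2 and is stabilised when kinases of the DNA damage response act on it. It then binds DNA as a tetramer, at sites made of paired decamers, and raises genes that halt the cell cycle, repair DNA, reset metabolism or start apoptosis. Mdm2 and Ccng1 are among these genes, so that the response limits itself. In the kidney, induction of Cdkn1a and related targets is a common sign of genotoxic or ischaemic injury to the tubules.

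Promoter sequences were examined for the element by which p53 recognises such genes. Promoter windows, from 250 bases before to 50 bases after a transcript start, were taken from RefSeq (build GRCr8) for 7 of the 10 genes, with 8 windows in all; Bax, Tp53inp1 and Zmat3 had none in the table. They were searched for the p53 decamer consensus, which reads the same on both strands. A perfect decamer lay in 3 of the 8 windows, those of Cdkn1a, Ccng1 and Sesn1, and in 7.98% of 33469 windows of the same length over all genes. The planned search for pairs of perfect decamers, at most 13 bases apart, matched 0 of the 8 windows and 0.0598% of all windows. In Cdkn1a and Ccng1 the decamer abuts another that is off by 1 letter, so that 19 of 20 letters match a paired site. This search, chosen after the perfect matches were seen, was looser in letters but took only abutting decamers. It matched 0.0717% of all windows, a share not directly comparable with that of the planned search. Another pattern, searched on both strands, the letters CATG on either side of any 6 bases, was in 0 of the 8 windows and in 0.457% of all windows. A match describes letters only and shows no binding. Both windows are shown because they carry the match of 19 of 20 letters, in capitals, which is called the paired site below.
Cdkn1a, chr20:7150682-7150981, plus strand, with the paired site starting 201 bases before the transcript start: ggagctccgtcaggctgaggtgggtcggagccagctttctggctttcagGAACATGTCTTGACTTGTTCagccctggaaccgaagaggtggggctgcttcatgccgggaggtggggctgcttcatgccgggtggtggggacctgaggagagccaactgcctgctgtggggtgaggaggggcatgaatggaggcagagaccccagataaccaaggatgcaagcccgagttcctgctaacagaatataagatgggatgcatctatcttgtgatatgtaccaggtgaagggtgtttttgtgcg
Ccng1, chr10:25684827-25685126, minus strand, with the paired site starting 242 bases before the transcript start: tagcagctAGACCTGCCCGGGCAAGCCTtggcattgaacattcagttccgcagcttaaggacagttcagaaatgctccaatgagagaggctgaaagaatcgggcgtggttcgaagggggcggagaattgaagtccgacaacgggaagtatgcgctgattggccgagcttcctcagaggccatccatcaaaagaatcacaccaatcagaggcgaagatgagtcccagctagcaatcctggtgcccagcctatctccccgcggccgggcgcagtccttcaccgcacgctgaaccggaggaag

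Array quality was similar in both groups. Between 59.2% and 67.8% of probes were well above background per array, none was saturated, and pairs of arrays correlated at r = 0.99 to 0.993 within groups and 0.988 to 0.992 between groups, across probes, which are not independent replicates. Slides, 3 in number, did not align with treatment. Control replicates 1 and 2 shared slide 1 with dibromoethane replicate 2, control replicate 3 shared slide 2 with dibromoethane replicate 1, and dibromoethane replicate 3 was alone on slide 3. Slide 2 was scanned on another day than slides 1 and 3. Quality measures differed by slide: 59.2% to 62% of probes were well above background on slide 1, and 65.7% to 67.8% on slides 2 and 3. Slide 2 had 11 outlier spots on each array, against 1 to 4 on the other arrays. Of the labelled tissue's defining markers, 15 of 15 proximal tubule genes were well above background on all 6 arrays.

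The comparison asks whether these genes stood higher in the renal cortex of dibromoethane-treated rats. None of the 15 tested probes passed an adjusted p of 0.05 in limma, in either direction; their adjusted p lay between 0.424 and 0.939. Over all probes 10 passed, which is 0.0268%, 8 higher (0.0215%) and 2 lower (0.00537%). With slide as a fixed block 0 passed in limma (4394 probes had an unadjusted p under 0.05, against 4201 without the block). That fit had 2 residual degrees of freedom, against 4, and took nothing from dibromoethane replicate 3, which was alone on slide 3. A block for scan day left 2 passing. With a single array dropped, 4, 1 and 12 passed for control replicates 1, 2 and 3 in turn, and 1, 2 and 7 for dibromoethane replicates 1, 2 and 3. At an unadjusted p under 0.05, 1 of the 15 probes stood higher and 0 stood lower, against 4.68% and 6.59% of all tested probes. The groups did not overlap in 2 of the 15 probes, both higher in treated rats, where 7.59% of all tested probes were so and 11.8% were lower without overlap. The log2 fold change was above 0 in 11 of the 15, against 46.8% of all tested probes, and its median was 0.08, against -0.01 for all. With slide as a fixed block the median was 0.15, within slide 1 it was 0.05 and within slide 2 it was 0.01. The 15 probes belong to 9 genes, and probes of one gene are not independent observations. With 1 probe per gene, 7 of the 9 were above 0, and the median was 0.16, against -0.02 for all.

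**Figure D1:**
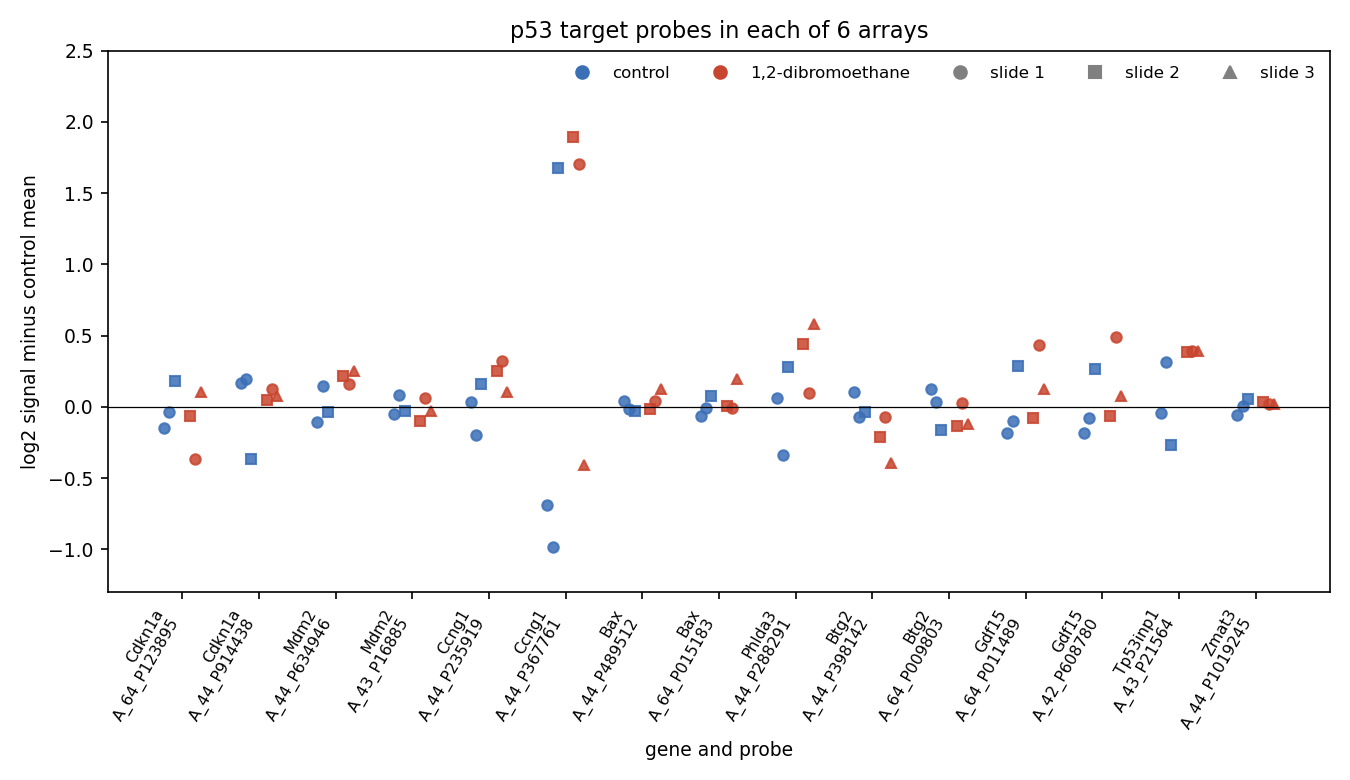
Log2 signal of each of the 15 tested p53 target probes in each array (vertical axis), minus the mean of the 3 controls, by gene and probe (horizontal axis). Blue points are controls, red points are dibromoethane-treated rats, and the shape gives the slide; the probe A_44_P367761 of Ccng1 spans 2.88 over the 6 arrays, and the next widest, Phlda3, spans 0.93.

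Mdm2 encodes the ubiquitin ligase that marks p53 for degradation. Levels are given throughout as log2 signal relative to the array's 75th percentile. On its probe A_44_P634946 the levels were 0.71, 0.96 and 0.78 in control replicates 1 to 3 and 1.03, 0.98 and 1.07 in dibromoethane replicates 1 to 3. All 3 treated arrays lay above all 3 controls, though dibromoethane replicate 2 exceeded control replicate 2 by little. The means were 0.82 ± 0.13 (SD, n = 3) and 1.03 ± 0.04 (SD, n = 3), which differ 1.15-fold (log2 fold change 0.21 with SE 0.09, adjusted p = 0.457 in limma; 0.14 within slide 1 and 0.25 within slide 2). The other probe, A_43_P16885, read -1.22, -1.09 and -1.2 in controls and -1.27, -1.11 and -1.2 in treated rats. Here the groups overlapped (log2 fold change -0.02 with SE 0.08, adjusted p = 0.939 in limma). The log2 signal of the first probe minus that of the second was 1.99 ± 0.06 (SD, n = 3) in controls and 2.22 ± 0.11 (SD, n = 3) in treated rats. This difference between probes of one gene, in which the scaling of an array cancels, was 0.23 larger in treated rats (exact two-sided permutation p = 0.1, the smallest that 3 against 3 allows; 0.6 adjusted over 6 pairs of probes; 0.10 within slide 1 and 0.31 within slide 2).

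Ccng1 encodes cyclin G1, a partner of protein phosphatase 2A that acts on Mdm2. Its probe A_44_P235919 read 2.27, 2.04 and 2.4 in controls and 2.49, 2.56 and 2.34 in treated rats. Control replicate 3 lay above dibromoethane replicate 3, so that the groups overlapped (1.17-fold, log2 fold change 0.23 with SE 0.12, adjusted p = 0.512 in limma). The within-slide values were 0.41 on slide 1 and 0.09 on slide 2, and without control replicate 2 the log2 fold change was 0.13.

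The second Ccng1 probe, A_44_P367761, divided the animals in a way that mixed the groups. It read -0.75, -1.05 and 1.61 in controls and 1.83, 1.64 and -0.47 in treated rats. Thus 1 control and 2 treated rats were high and the others low, with a gap of 2.08 between the 3 lowest and the 3 highest arrays, while the low arrays spanned 0.58 and the high arrays 0.22. Both arrays of slide 2, scanned on the other day, were high, both controls on slide 1 were low while its treated rat was high, and the treated rat on slide 3 was low. The part of slide and scan day in this division was not tested. The group means were -0.06 ± 1.46 (SD, n = 3) and 1 ± 1.28 (SD, n = 3), and the 2.09-fold difference between them had a 95% interval from 0.454-fold to 9.66-fold (log2 fold change 1.07 with SE 0.91, adjusted p = 0.675 in limma). Within slide 1 the difference was 2.54, from the low controls and the high treated rat, and within slide 2, where both arrays were high, it was 0.22. Leaving out single arrays gave 0.57 to 1.9.

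The same 3 arrays were the highest on the first Ccng1 probe, but there the gap was 0.06. A gap of at least 2.08 between the 3 lowest and the 3 highest arrays, counted after this pattern was seen, was present in 14 of 37262 tested probes without missing values (0.0376%). In 6 of these 14 the division mixed the groups, and none of the other 13 divided the arrays as this probe did. Among the other tested probes of the p53 targets the largest such gap was 0.19. The sequence of the probe was not used here. The difference between the Ccng1 probes, first minus second, was 2.3 ± 1.31 (SD, n = 3) in controls and 1.46 ± 1.17 (SD, n = 3) in treated rats (exact two-sided permutation p = 0.3).

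**Figure D2:**
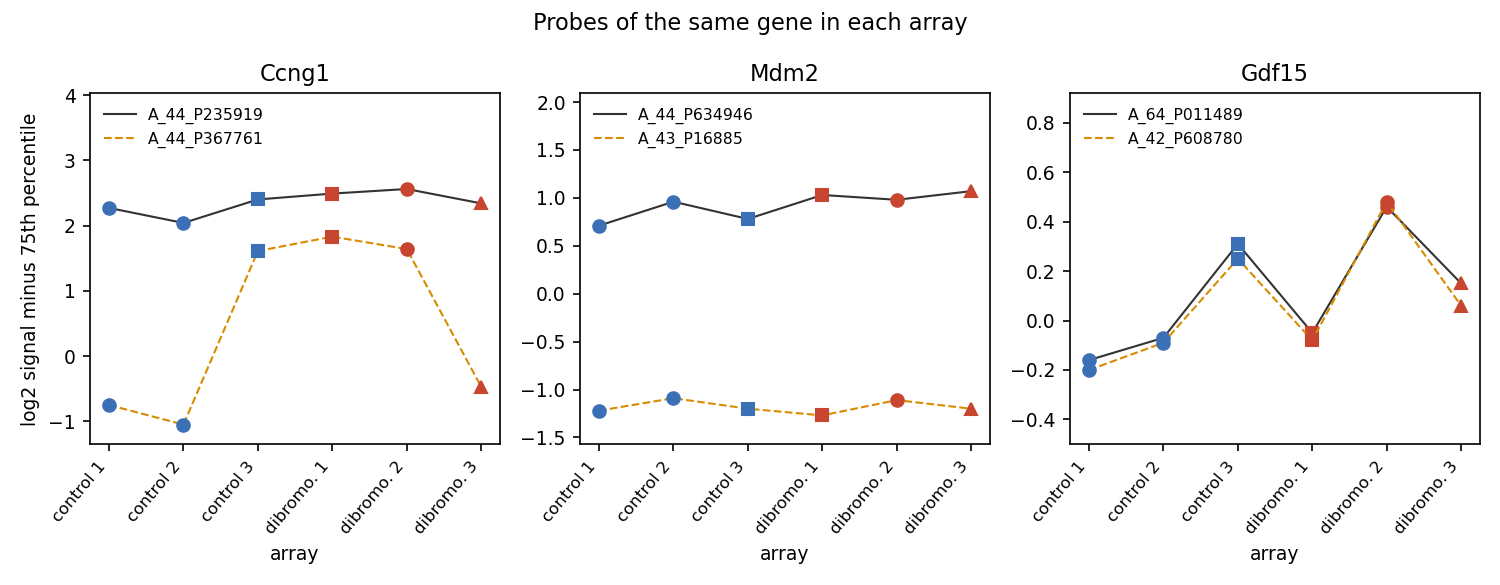
Log2 signal relative to the 75th percentile (vertical axis) in each of the 6 arrays (horizontal axis) for the paired probes of Ccng1, Mdm2 and Gdf15; lines join the arrays of 1 probe, colours give the group (blue control, red dibromoethane) and shapes the slide as in the plot of single arrays. The dashed Ccng1 probe ranges from -1.05 to 1.83, while the Gdf15 probes run together.

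Cdkn1a encodes p21, the inhibitor of cyclin-dependent kinases through which p53 halts the cell cycle. Its probe A_64_P123895 read 4.89, 5 and 5.22 in controls and 4.97, 4.67 and 5.14 in treated rats. Dibromoethane replicate 2 was the lowest of all arrays and control replicate 3 the highest. The means of 5.04 ± 0.17 (SD, n = 3) and 4.93 ± 0.23 (SD, n = 3) differed by less than the spread between animals (log2 fold change -0.11 with SE 0.15, adjusted p = 0.802 in limma). The 95% interval runs from 0.722-fold to 1.19-fold, so a larger rise lies outside it on this probe. A_44_P914438 read 1.08, 1.11 and 0.55 in controls and 0.96, 1.04 and 0.99 in treated rats. Control replicate 3, highest on the first probe, was lowest on this one. The groups overlapped here too (log2 fold change 0.08 with SE 0.16, adjusted p = 0.863 in limma). On this second probe the 95% interval reaches higher, from 0.808-fold to 1.39-fold. Within slide 2, which holds control replicate 3, the probes gave opposite signs, -0.25 for the first and 0.42 for the second; within slide 1 they gave -0.27 and -0.05. The third probe, A_44_P515275, was well above background on 0 control arrays and 1 treated array and gives no fold.

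Btg2, an antiproliferative protein that acts on mRNA deadenylation, also takes part in cell cycle arrest. On A_44_P398142 it read 0.46, 0.28 and 0.32 in controls and 0.14, 0.28 and -0.04 in treated rats. The treated rats tended lower but dibromoethane replicate 2 matched control replicate 2 (log2 fold change -0.22 with SE 0.11, adjusted p = 0.489 in limma). This was the lowest of the 15 values, and it was -0.09 within slide 1 and -0.17 within slide 2. Blocking on slide gave -0.12, and dropping dibromoethane replicate 3 gave -0.14. A_64_P009803 read 0.26, 0.17 and -0.03 in controls and 0, 0.16 and 0.01 in treated rats, again with overlap (log2 fold change -0.08 with SE 0.10, adjusted p = 0.795 in limma).

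Among the genes tied to apoptosis, Tp53inp1, which promotes p53 phosphorylation and autophagy, had the smallest unadjusted p of the 15 probes. Its single probe, A_43_P21564, read -1.09, -0.73 and -1.31 in controls and -0.66, -0.65 and -0.65 in treated rats. The treated arrays lay within 0.01 of each other and above every control, while the controls varied (SD 0.29, n = 3, against 0.01, n = 3). The difference was 1.31-fold (log2 fold change 0.39, SE 0.15, 95% interval 0.02 to 0.76, limma unadjusted p = 0.04, adjusted p = 0.424), with 0.26 within slide 1 and 0.65 within slide 2. In rank of unadjusted p the probe stood at 3510 of 37274.

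Phlda3, which opposes the kinase Akt at the membrane, had a difference of like size but with overlap. Its probe A_44_P288291 read -3, -3.4 and -2.78 in controls and -2.62, -2.96 and -2.48 in treated rats. Dibromoethane replicate 2 lay among the controls, and control replicate 2 was the lowest array (1.3-fold, log2 fold change 0.38 with SE 0.20, adjusted p = 0.514 in limma). The value was 0.25 within slide 1 and 0.16 within slide 2. Blocking on slide gave 0.21, dropping control replicate 2 gave 0.21, and normexp background correction gave 0.25.

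Bax, the pore-forming protein of the outer mitochondrial membrane, hardly varied. A_44_P489512 read 3.17, 3.11 and 3.1 in controls and 3.11, 3.17 and 3.25 in treated rats, and A_64_P015183 read 2.3, 2.36 and 2.44 in controls and 2.37, 2.36 and 2.56 in treated rats. The groups overlapped on both, and dibromoethane replicate 3 was the highest array on both. The log2 fold changes were 0.05 (SE 0.07) and 0.06 (SE 0.09), with limma adjusted p of 0.818 and 0.804, and the upper ends of the 95% intervals were 1.17-fold and 1.21-fold.

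Zmat3, an RNA-binding zinc finger protein, was the steadiest of the 15 across animals. Its probe A_44_P1019245 read 1.42, 1.48 and 1.53 in controls and 1.51, 1.5 and 1.5 in treated rats, a spread of 0.10 over all 6 arrays. The treated values fell inside the range of the controls (log2 fold change 0.03, SE 0.07, 95% interval 0.912-fold to 1.14-fold, limma adjusted p = 0.891). Its other probe, A_64_P115928, was well above background on 1 control array and 0 treated arrays and gives no fold.

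Gdf15 encodes a secreted stress cytokine of the TGF-beta superfamily. A_64_P011489 read -0.16, -0.07 and 0.31 in controls and -0.05, 0.46 and 0.15 in treated rats, and A_42_P608780 read -0.2, -0.09 and 0.25 in controls and -0.08, 0.48 and 0.06 in treated rats. Dibromoethane replicate 2 was the highest array on both probes and control replicate 3 was next. The log2 fold changes were 0.16 (SE 0.18, limma adjusted p = 0.757) and 0.17 (SE 0.19, limma adjusted p = 0.755). Single arrays set much of these values: they were 0.02 and 0.01 without dibromoethane replicate 2, 0.06 and 0.07 without control replicate 1, 0.27 and 0.28 without dibromoethane replicate 1, and 0.30 on both without control replicate 3. The sign differed between slides: the first probe gave 0.57 within slide 1 and -0.36 within slide 2, and the second gave 0.62 and -0.33. The probes followed each other closely, with a difference between them of 0.04 ± 0.02 (SD, n = 3) in controls and, in treated rats, 0.03 ± 0.05 (SD, n = 3).

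**Figure D3:**
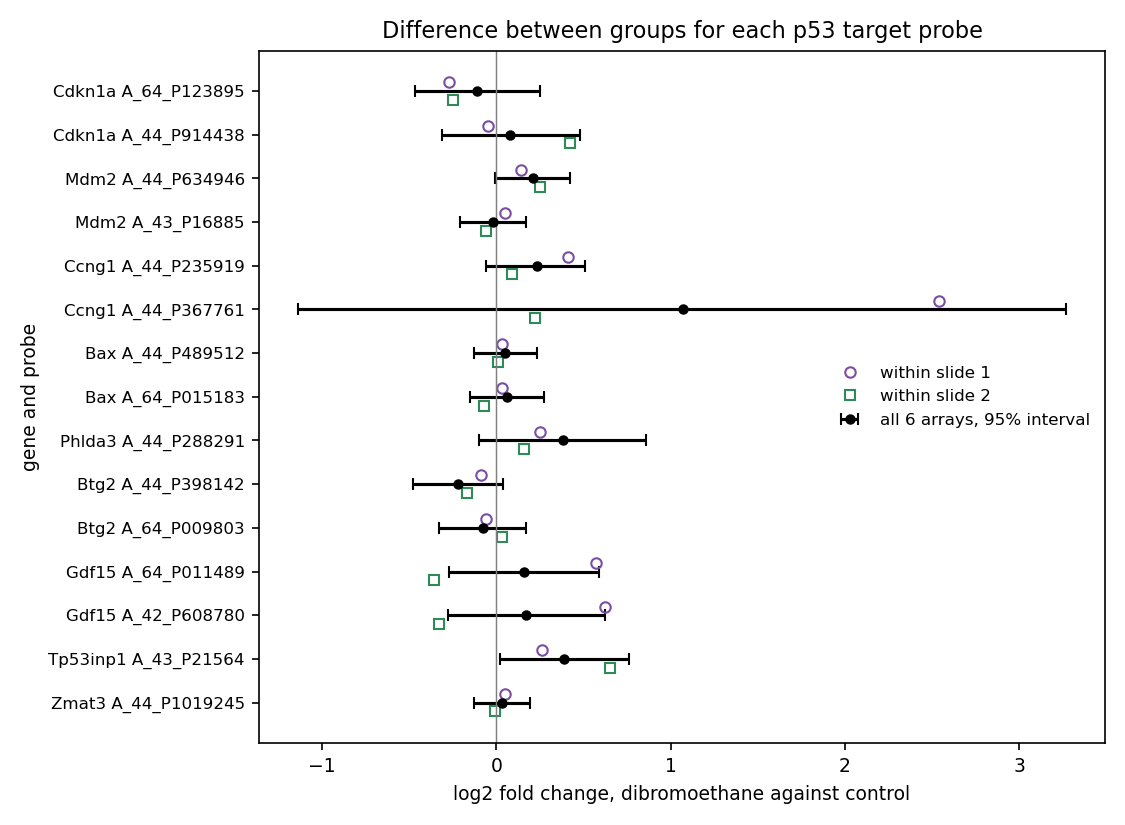
Log2 fold change of dibromoethane against control (horizontal axis) for each of the 15 tested p53 target probes (vertical axis), with the 95% interval of the limma fit as bars and the differences within slide 1 (open circles) and slide 2 (open squares). Only the interval of Tp53inp1 lies wholly above 0, before adjustment over all probes, and Gdf15 lies on opposite sides of 0 on the 2 slides.

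Across the 15 probes no treated animal was high throughout. Dibromoethane replicate 3 was the highest array for 5 of them, dibromoethane replicate 2 for 3 and dibromoethane replicate 1 for 1; over all tested probes these shares were 18.9%, 16.5% and 11.7%. Each control was the highest array for 2, against 17.4%, 19.2% and 16.3% of all tested probes for replicates 1, 2 and 3. Each treated array was the lowest for 1, against 17.1%, 18.7% and 20.1%. Control replicate 1 was the lowest array for 5, control replicate 3 for 4 and control replicate 2 for 3, against 10.5%, 16.8% and 17% of all tested probes. The treated rats varied more than the controls in 6 of the 15 probes, against 52.9% of all tested probes.

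Agreement between probes of one gene differed from gene to gene. Of 6 pairs, those of Bax (-0.01 between groups), Gdf15 (-0.01) and Btg2 (-0.14) had differences of 0.14 or less in size, and those of Cdkn1a (-0.20), Mdm2 (0.23) and Ccng1 (-0.84) had larger ones. Without control replicate 3 the value for Cdkn1a turned to 0.08, and it was -0.05 without dibromoethane replicate 2. The value for Ccng1 ran from -1.6 without control replicate 3 to -0.44 without dibromoethane replicate 1. The place of Cdkn1a among the larger values thus rests on single arrays. Only for Mdm2 did the between-probe differences of the groups not overlap. The adjusted exact permutation p lay between 0.6 and 0.9.

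The wider pathway was described by lists of p53 regulators, of targets in apoptosis, and of targets in arrest, repair and metabolism, with each gene represented by its probe of highest mean signal. None of their tested genes passed in limma. Of 12 tested regulators, 0 stood higher and 1 lower at an unadjusted p under 0.05, against 4.68% and 6.59% of all tested probes; 2 were above 0, against 46.8% of all, and the median log2 fold change was -0.08, against -0.01. Mdm4, which restrains p53 beside Mdm2, had a value of -0.08 (SE 0.09).

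The regulators with the smallest p were the kinase Chek2, the ribosomal protein Rpl11, which binds Mdm2, the damage kinase Atm and the kinase Hipk2. Chek2 read -2.73, -2.75 and -2.81 in controls and -3.02, -3.02 and -3.08 in treated rats, without overlap (log2 fold change -0.28 with SE 0.07, adjusted p = 0.326 in limma), but its other probe gave 0.24 (SE 0.12). The value was -0.20 (SE 0.09) for Rpl11, -0.64 (SE 0.37) for Atm and -0.14 (SE 0.09) for Hipk2; another probe of Atm gave -0.01.

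Of 12 tested apoptosis targets, 0 had an unadjusted p under 0.05 in limma, against 11.3% of all tested probes, 5 were above 0, against 46.8%, and the median was -0.05. The death receptor gene Fas stood at 0.16 (SE 0.09) and Bbc3, which encodes the BH3-only protein Puma, at 0.15 (SE 0.11). Values were -0.19 (SE 0.09) for the receptor Tnfrsf1a, -0.19 (SE 0.11) for the apoptosome gene Apaf1 and -0.16 (SE 0.10) for Bik; another probe of Apaf1 gave 0.03. Pmaip1, which encodes Noxa, was not well above background on any of the 6 arrays. The named genes of this arm had no common sign.

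The arrest, repair and metabolism targets spread most widely of these 3 lists. Of 24 tested genes, Thbs1 passed the filter through the treated arrays alone and is left out of the counts. The other 23 ran from -1.06 to 0.59, with 11 above 0, against 46.8% of all tested probes, and a median of -0.01. At an unadjusted p under 0.05, 2 stood higher and 4 lower, against 4.68% and 6.59% of all tested probes. The groups did not overlap in 5 higher and 5 lower genes, against 7.59% and 11.8%. Ephx1, microsomal epoxide hydrolase, read 3.26, 3.12 and 3.15 in controls and 3.65, 3.76 and 3.89 in treated rats (1.5-fold, log2 fold change 0.59 with SE 0.09, adjusted p = 0.217 in limma). All its treated arrays were clear of the controls. Ephx1 is also a target of xenobiotic sensors, whose part in this value was not tested. The other gene on the higher side at an unadjusted p under 0.05 was Sesn2, a paralogue of Sesn1 named after its values were seen, at 0.24 (SE 0.10, limma adjusted p = 0.437).

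The 4 genes on the lower side at that threshold were Plk3, Ddit4 and Gadd45a, all stress-induced, and Tp73, a transcription factor gene named after its values were seen. Plk3, a polo-like kinase, read -0.34, -0.15 and -1.11 in controls and -1.67, -1.62 and -1.49 in treated rats (log2 fold change -1.06 with SE 0.25, adjusted p = 0.315 in limma). Ddit4, an inhibitor of mTOR signalling that glucocorticoids also induce, read 2.6, 2.45 and 1.99 in controls and 1.65, 1.43 and 1.47 in treated rats (log2 fold change -0.83 with SE 0.17, adjusted p = 0.26 in limma). Its remaining probes gave -0.70 and -0.74. Gadd45a, a damage-inducible protein that interacts with PCNA, read 3.03, 3.18 and 3.21 in controls and 2.78, 2.9 and 2.65 in treated rats (log2 fold change -0.36 with SE 0.10, adjusted p = 0.348 in limma). Tp73 read -0.93, -0.86 and -1.14 in controls and -1.14, -1.85 and -2.3 in treated rats (log2 fold change -0.78 with SE 0.29, adjusted p = 0.409 in limma), and within slide 2 its value was 0. In Plk3, Ddit4 and Gadd45a every treated array lay below every control, whereas on the Tp53inp1 probe and on A_44_P634946 of Mdm2 every treated array lay above.

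**Figure D4:**
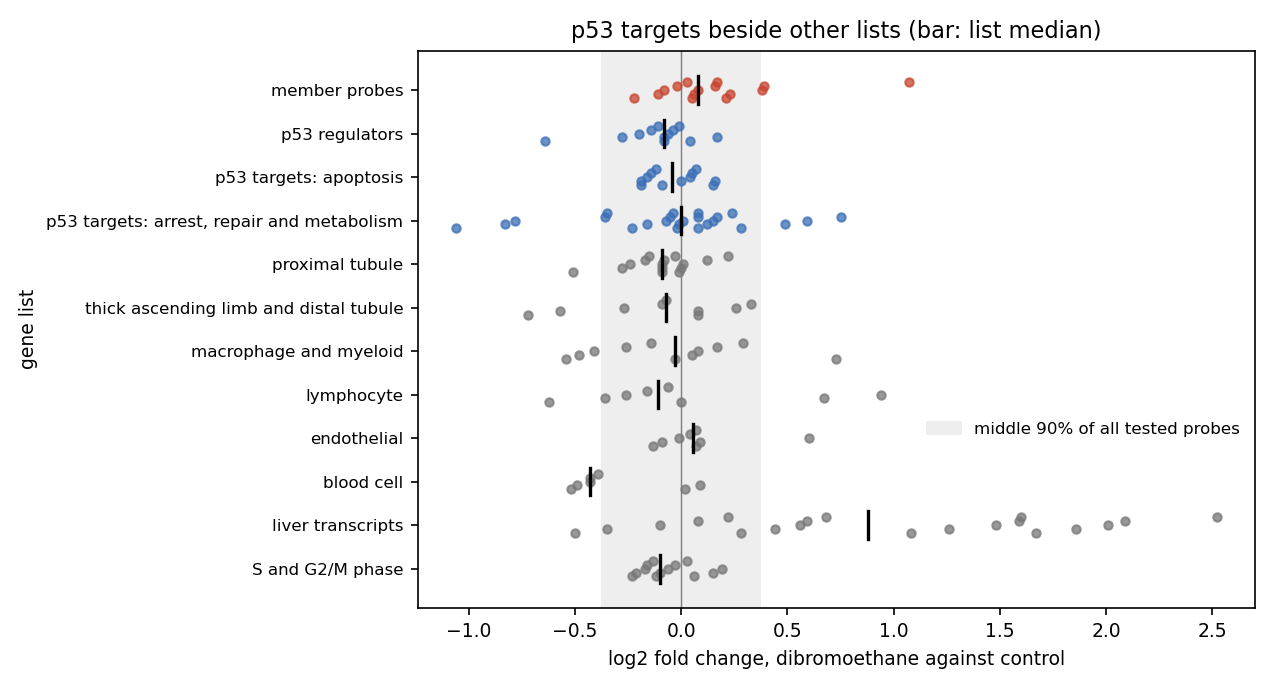
Log2 fold change of dibromoethane against control (horizontal axis) for the p53 target probes (red), the other p53 pathway lists (blue) and marker lists (grey); black bars are medians over the tested genes of a list, those that passed the filter through 1 group included, and the grey band holds the middle 90% of all tested probes (-0.37 to 0.37). The p53 lists centre near 0, while liver transcripts lie mostly to the right and blood cell markers to the left.

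Markers of other cells and of proliferation were measured beside these genes. Of 22 transcripts abundant in liver 20 were tested, of which Apoa2, Fgg and Serpina1 passed the filter through the treated arrays alone. The other 17, well above background on all 6 arrays, were above 0 in 14, against 46.8% of all tested probes, with a median of 0.59 (0.88 over the 20). Among these 17 the groups did not overlap in 1, higher in treated rats, against 7.59% of all tested probes. Animals of a group could differ widely: Alb read -1.17, 1.94 and 1.5 in controls and 3.81, 2.1 and 1.93 in treated rats. The summed linear signal of the 20, in units of the 75th percentile, was 31.3 to 44 in controls and 43.1 to 82.2 in treated rats. This sum, like the median of 0.88, includes the genes that passed through the treated arrays alone. The liver enzymes Cps1 and Tat were well above background on 0 arrays. Blood cell markers well above background on all 6 arrays were above 0 in 2 of 6, with a median of -0.43. Their summed signal, over 7 tested, was 731 to 818 in controls and 496 to 655 in treated rats. That sum includes Epb42, which passed the filter through the control arrays alone. Over genes well above background on all 6 arrays, the medians were -0.09 for 15 proximal tubule markers, -0.07 for 9 of thick ascending limb and distal tubule, -0.09 for 10 of macrophages, -0.16 for 7 of lymphocytes, 0.05 for 8 of endothelium and -0.10 for 13 genes of S and G2/M phase. In whole cortex, fewer cells of a type and less RNA per cell cannot be told apart. The part of these markers in the values of the p53 targets was not tested.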

How the data were processed

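Scanner tables of 6 arrays were analysed. The intensity values deposited in them were made on array design 045522 by Agilent Feature Extraction 10.7.1.1, which subtracted the background, per the file headers (the submitters' processing notes give 10.7). Of 62976 spots, 1439 control spots and 84 spike-in probes were left out, and 1 to 11 outlier spots per array were set to missing. Values are log2 of the processed signal minus each array's 75th percentile. The deposited series table holds the same intensity divided by that percentile (r = 1, median ratio 1.001).

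Probe accessions, versions dropped, were looked up in a RefSeq gene table of GRCr8, used for names since the array grid names build rn4. Of 61453 probes 28206 received 1 of 15645 symbols. A probe was tested by itself if all arrays of a group had it well above background. Groups were compared with limma 3.58.1 in R 4.3.3 (lmFit, eBayes; residual degrees of freedom 4, prior 2.12), two-sided and without covariates, and p was adjusted over 37274 probes by Benjamini-Hochberg. The fit was tested on simulated data. Pairs of probes of a gene were compared by exact two-sided permutation.

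Precision is limited by the number of arrays, 3 in each group, which the labels describe as separate animals. The p53 targets and all lists were chosen with earlier results of these data known. From the other p53 lists the text names genes that passed or else the 4 with the smallest p per list, and always Mdm4, Ephx1, Gadd45a, Bbc3 and Pmaip1; another gene of the regulator list is not reported here. Sesn2 and Tp73 were named after their values were seen. Alternatives were other scalings, normexp with an offset of 50 (on the median signal, a change made after seeing the files), the series table, other filters and gene summaries, slide, scan day (added later) or replicate number as a block, trend and robust, and leaving out each array.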

Additional observations from a re-analysis of the deposited data

How the results depend on the processing

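Under all 20 alternatives 0 of the p53 target probes and 0 of the other p53 pathway genes passed in limma; the smallest adjusted p of a p53 target probe lay between 0.308 and 0.845, and 0 to 3 of these probes had an unadjusted p under 0.05. Signs of probe values turned as follows: Zmat3 gave -0.01 with median centring, A_64_P015183 of Bax -0.01 with slide as a fixed block and also when slide 3 was dropped. With single arrays left out, A_43_P16885 of Mdm2 ranged from -0.06 to 0.02 (0.02 without control replicate 2 or dibromoethane replicate 1). A_44_P914438 of Cdkn1a ranged from -0.10 to 0.18 (-0.10 without control replicate 3), and A_64_P123895 of Cdkn1a from -0.21 to 0.02 (0.02 without dibromoethane replicate 2). The difference between the Cdkn1a probes ranged from -0.35 to 0.08 (0.08 without control replicate 3), between the Bax probes from -0.06 to 0.04 and between the Gdf15 probes from -0.03 to 0.02. The differences between probes of a gene were 0.10 for Bax with normexp, and within slide 1 they were 0.10 for Mdm2, -2.14 for Ccng1, -0.03 for Btg2 and -0.05 for Gdf15. Within slide 2 they were -0.67 for Cdkn1a and 0.07 for Bax.

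The counts over all probes moved more. Lowered probes numbered 4 with quantile normalization, 1 with median centring, 4 with slide as a random block and 9 of 20 changed with trend and robust. Normexp gave 6 changed and 0 lowered. Without a filter 1 changed, 1 was raised and 0 were lowered, with 61453 probes tested. Slide as a fixed block gave, with or without slide 3, 0 changed, 0 raised and 0 lowered in limma with 2 residual degrees of freedom (4394 at an unadjusted p under 0.05). A block for scan day gave 2 changed, 2 raised and 0 lowered. With single arrays left out, 1 to 12 probes changed, 1 to 11 were raised and 0 to 2 lowered. Some of these settings also left fewer residual degrees of freedom or took in more probes. What moved the counts was not tested. Both groups carry replicate numbers 1 to 3 in the labels, but the deviations of same-numbered arrays correlated at -0.20, 0.24 and 0.13, and 3 of 6 arrays correlated best with their own number, so the numbers were not taken as pairs; with the replicate number as a block 0 probes changed, 0 were raised and 0 lowered in limma (4455 at an unadjusted p under 0.05). Signal over background limits the third Cdkn1a probe, the second Zmat3 probe and Pmaip1.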
